A study of Mus musculus with 3 samples.

Results

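The genes described here encode the major histocompatibility complex (MHC, called H2 in the mouse) and the machinery that makes and loads its peptides, measured by RNA sequencing in the left ventricle of the mouse heart. They were chosen by name: every gene whose symbol starts with H2-, plus 18 named genes of antigen processing. This gave 40 of the 15503 genes in the deposited tables, and all 40 occurred in each of the 3 tables. They comprise 13 class I genes (12 heavy chains and B2m), 8 class II genes (7 chains and Cd74), 14 processing genes, 2 transcriptional activators and 3 other genes with an H2- symbol. There were 3 libraries, each from RNA of 3 C57BL6J mice pooled before sequencing. The library labelled Egln1/Hif2aTie2Cre stands for mice with Cre recombinase under the Tie2 promoter and deletion of Egln1 and Hif2a. The Egln1Tie2Cre library stands for mice with the same Cre and deletion of Egln1, and the Egln1 floxed library, whose mice the design text calls wild type, is the control. The Tie2 promoter drives Cre in the endothelium and, as background, in much of the blood cell lineage, which includes the white blood cells that carry most class II molecules. The labels give neither age nor sex. Egln1 encodes PHD2, an enzyme that marks hypoxia-inducible factors for degradation, and Hif2a is the protein of Epas1.

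MHC class I molecules are made by nearly every nucleated cell. A heavy chain pairs with beta-2 microglobulin, the product of B2m, and carries peptides that the proteasome cuts in the cytosol and the TAP transporter moves into the endoplasmic reticulum. Class II molecules are pairs of an alpha and a beta chain, made mainly by dendritic cells, macrophages and B cells, and carry peptides from endosomes after the invariant chain, the product of Cd74, has been removed. In the heart, resident macrophages and dendritic cells are the main class II cells, while endothelial cells carry class I at a high level. NLRC5 drives class I genes and CIITA drives class II genes, both through shared promoter elements, and interferon raises both classes.

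With 1 library per genotype there is no replicate, so no difference below has a check against animal-to-animal spread and no p-value is given. Values are FPKM, sequenced fragments scaled to transcript length and to the mapped fragments of the library, which allows levels of different genes to be set side by side. A fold is a plain ratio of FPKM. A gene is called higher or lower when it was at least 1.5-fold apart and its mean FPKM in the pair was at least 1. Depth is unknown. The ventricle markers were abundant in all 3 libraries, where Tnnt2, the cardiac troponin T gene, lay between 7761 and 8947 FPKM. Egln1 was 129.0 FPKM in the library labelled Egln1/Hif2aTie2Cre, 95.7 in Egln1Tie2Cre and 129.5 in Egln1 floxed. The first of these values goes against the Egln1 part of its label at the level of the whole ventricle. The ventricle also holds cells without this Cre, so these values cannot show whether Egln1 was deleted in the cells with it. Epas1 was 54.5, 65.02 and 77.4 FPKM in the same order. In the Egln1Tie2Cre library, genes with a near-identical copy elsewhere behaved unlike the rest. A copy here is another gene whose transcript matches at least 50% of the coding sequence at 95% identity or more. Of 1135 such genes, 41.7% were called lower and 21.5% higher than in Egln1 floxed, against 9.27% and 10.5% of the 10734 genes without a copy. The cause was not tested. Of the 40 genes, 9 have such a copy, and values are given with and without them.

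**Figure D1:**
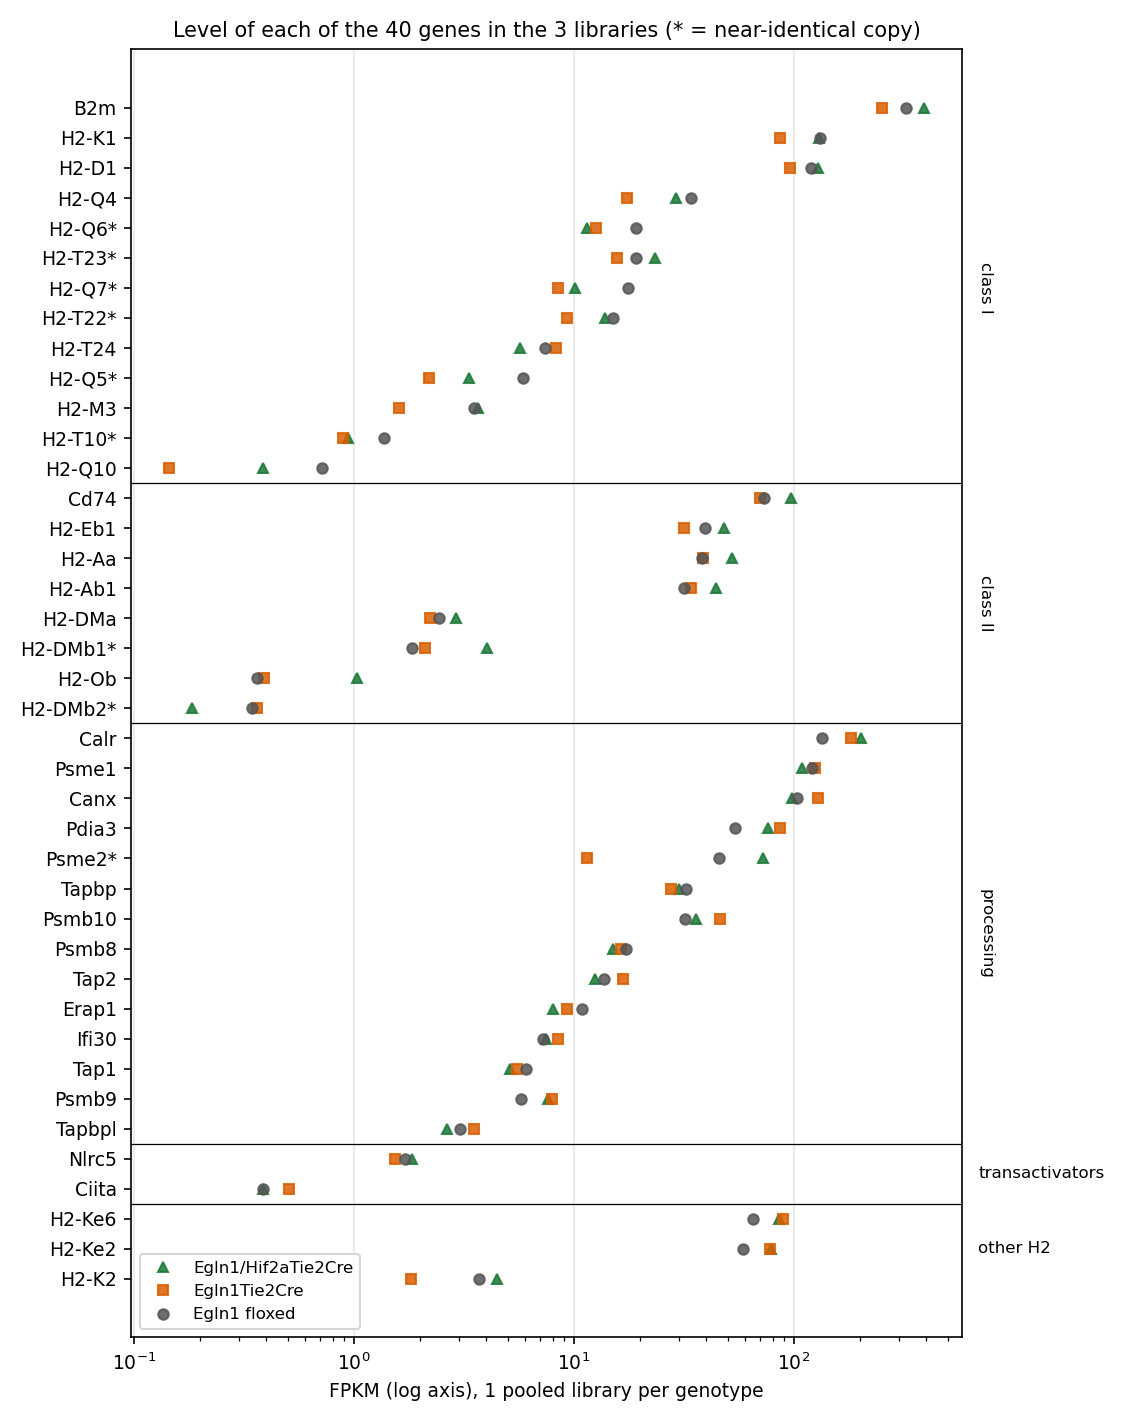
FPKM of each of the 40 genes on a log axis, with 1 symbol per pooled library (triangle, library labelled Egln1/Hif2aTie2Cre; square, Egln1Tie2Cre; circle, Egln1 floxed). B2m is the highest gene in each library, at 252 to 389.5 FPKM, and most class I squares lie left of their circles.

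B2m was the most abundant of the 40 genes in each library, at 389.5 FPKM in the library labelled Egln1/Hif2aTie2Cre, 252 in Egln1Tie2Cre and 325 in Egln1 floxed. It lay above 98.1% to 98.6% of all listed genes. The classical heavy chains H2-K1 and H2-D1, which present peptides to CD8+ T cells, came next among class I genes. H2-K1 (GRCm38 chromosome 17, 33996017 to 34000347, minus strand) was 129.5, 86.5 and 131 FPKM in the same order, and H2-D1 (chromosome 17, 35262730 to 35267499, plus strand) was 128, 96.01 and 119.8. Each of these 3 genes was thus lowest in the Egln1Tie2Cre library, with the other libraries close together for H2-K1 and H2-D1. The non-classical heavy chains were lower in level. H2-Q4 was 29.02, 17.4 and 34.1 FPKM, H2-T23, which encodes the Qa-1 ligand of natural killer cell receptors, was 23.4, 15.8 and 19.2, and H2-T22, a ligand of gamma-delta T cells, was 13.8, 9.33 and 15.1.

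The Egln1Tie2Cre library had less class I message than the Egln1 floxed library. Of the 12 class I genes kept, 11 were below the control and 8 were called lower, with 0 called higher. Over all genes tested in this comparison, 12.4% were called lower and 11.7% higher. Of the 8 called lower, 5 have a copy, and 41.7% of all genes with a copy were called lower. The median class I log2 ratio of FPKM + 1 was -0.58, while that of all genes was 0.02. H2-Q5 had the largest fold among those kept, at 2.19 FPKM in Egln1Tie2Cre against 5.84 in Egln1 floxed (2.66-fold lower). H2-Q5 and H2-T10 are annotated as polymorphic pseudogenes, and without them the class I median was still -0.58. H2-M3, which presents formylated bacterial and mitochondrial peptides, was 1.60 against 3.50 FPKM (2.19-fold), and H2-Q7, a Qa-2 antigen gene, was 8.47 against 17.7 (2.09-fold). H2-Q4 was 1.96-fold lower, H2-T22 1.61-fold, H2-T10 (0.893 against 1.37 FPKM) 1.53-fold, and H2-Q6 and H2-K1 were each 1.52-fold lower, just past the threshold. H2-D1 (1.25-fold), H2-T23 (1.22-fold) and B2m (1.29-fold) were lower without reaching it. H2-T24 was the exception, at 8.31 FPKM in Egln1Tie2Cre against 7.38 in Egln1 floxed.

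The class I heavy chains are copies of one another to different degrees, which bears on how reads are assigned. By the closest other gene, H2-T10 and H2-T22 match each other at 96.4% of aligned bases, H2-Q5 and H2-Q7 at 96.3%, and H2-T23 matches the pseudogene H2-T-ps at 95.6%. H2-Q6 matches H2-Q7 at 95.3%, and H2-K1 and H2-D1 match at 91.2%, below the limit for a copy. The copy status of each gene is therefore given beside its class. Among the 6 kept class I genes without a copy, 5 were below the control and 3 were called lower (H2-K1, H2-Q4 and H2-M3), with a median log2 ratio of -0.48. Over all genes without a copy, 9.27% were called lower and the median was 0.03. The 6 class I genes with a copy were all below the control, 5 of them called, with a median of -0.60. Over all genes with a copy, 41.7% were called lower and the median was -0.28. A sum over the heavy chains depends less on how shared reads are divided among them. The summed FPKM of all 12 was 259 in Egln1Tie2Cre against 375 in Egln1 floxed (1.45-fold lower), and without H2-Q5 and H2-T10 it was 256 against 368 (1.44-fold lower). The sum of H2-K1 and H2-D1 was 183 against 251 (1.38-fold lower), and that of the 5 Q genes was 40.9 against 77.6 (1.90-fold lower).

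**Figure D2:**
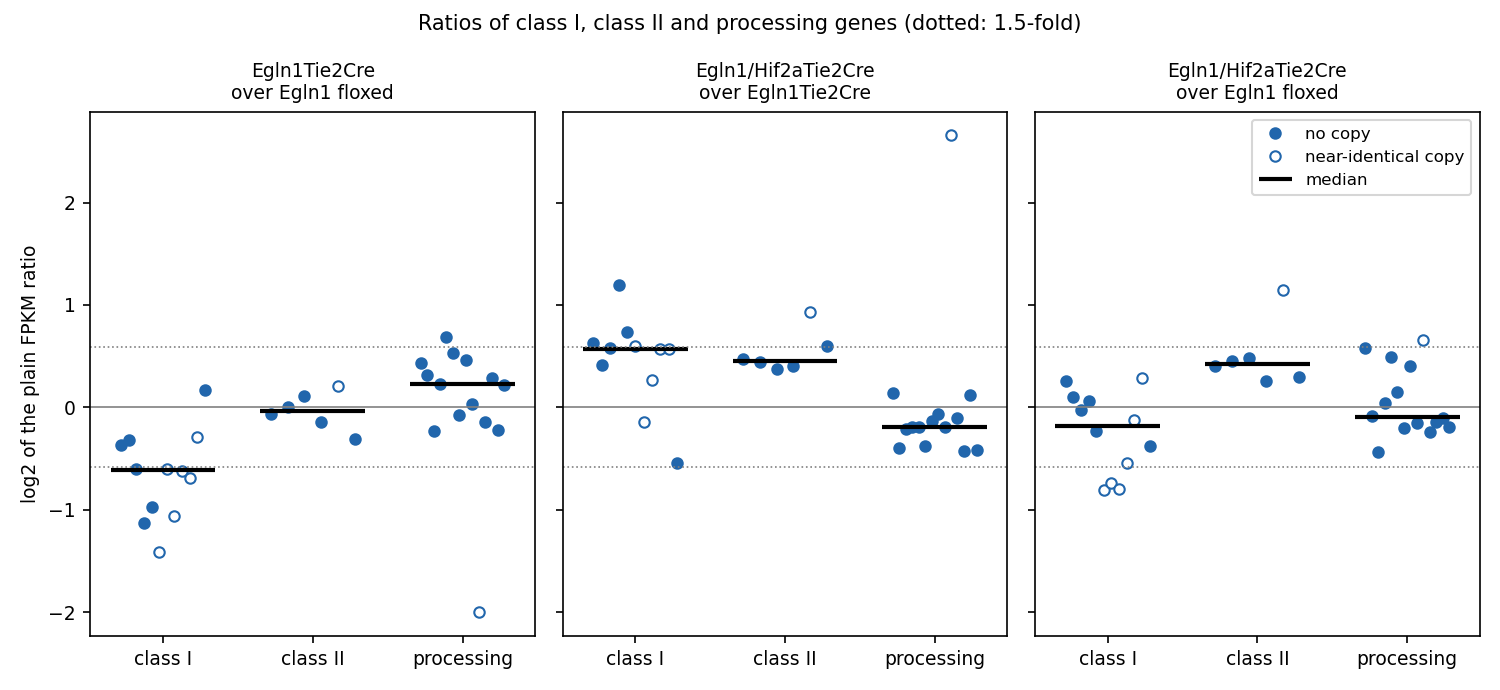
Log2 of the plain FPKM ratio for each class I, class II and processing gene with a mean FPKM of at least 1, in the 3 comparisons (filled, no copy; open, near-identical copy; line, median of the plain ratios; dotted lines, 1.5-fold). Class I is shifted down in the left panel and class II up in the right panel, where the lowest class I points are open symbols.

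Class II stood near the control in this comparison. Of the 6 class II genes kept, 3 were above and 3 below the control in the Egln1Tie2Cre library, and 0 were called in either direction. Their median log2 ratio was -0.03. H2-Aa, the alpha chain of the I-A molecule, was 38.5 FPKM in Egln1Tie2Cre against 38.3 in Egln1 floxed. H2-Ab1, its beta chain, was 34.2 against 31.8, and H2-Eb1, the I-E beta chain, was 31.7 against 39.3. Cd74 (GRCm38 chromosome 18, 60803848 to 60812652, plus strand) was 69.9 against 73.4 FPKM. The class II median was thus 0.55 above the class I median on the log2 scale, a difference that cannot be set against any replicate spread. The summed heavy chains of class I were 2.48 times the sum of H2-Aa, H2-Ab1 and H2-Eb1 in Egln1Tie2Cre, against 3.43 times in Egln1 floxed.

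In the library labelled Egln1/Hif2aTie2Cre, class II was higher than in both other libraries. All 6 kept class II genes were above the Egln1 floxed library, of which H2-DMb1 was called (background 6.73% called higher, 13.3% among genes with a copy and 6.02% among those without). The median log2 ratio was 0.42, against -0.004 for all genes. Cd74 was 96.9 FPKM in this library, against 73.4 in Egln1 floxed (1.32-fold). H2-Aa was 52.4 against 38.3 (1.37-fold), H2-Ab1 was 44.4 against 31.8 (1.40-fold), and H2-Eb1 was 48.1 against 39.3 (1.23-fold). These 4 abundant genes were higher by similar folds without reaching the threshold. Cd74 stood at a nearly fixed ratio to the sum of H2-Aa, H2-Ab1 and H2-Eb1, at 0.669 in the library labelled Egln1/Hif2aTie2Cre, 0.669 in Egln1Tie2Cre and 0.671 in Egln1 floxed.

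The peptide exchange genes of class II were expressed at a lower level. H2-DMb1, the beta chain of the H2-M molecule that loads peptides onto class II, was 4.04 FPKM in the library labelled Egln1/Hif2aTie2Cre, 2.12 in Egln1Tie2Cre and 1.83 in Egln1 floxed. Its 96.0%-identical neighbour H2-DMb2 was 0.183, 0.361 and 0.344 FPKM in that order, the opposite direction. The sum of the pair was 4.22, 2.48 and 2.17, so it was still 1.94-fold higher in the library labelled Egln1/Hif2aTie2Cre than in Egln1 floxed. H2-DMa, the alpha chain of the same molecule, was 2.91, 2.21 and 2.44 FPKM. H2-Ob, part of an inhibitor of H2-M found in B cells, was 1.03, 0.391 and 0.364 FPKM and fell under the filter in all 3 comparisons.

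Class I in the library labelled Egln1/Hif2aTie2Cre divided by gene against the control. Of 12 class I genes kept, 4 were above and 8 below Egln1 floxed, 0 were called higher and 3 lower (background 5.74% called lower). The class I median was -0.17 on the log2 scale, and -0.07 without H2-Q5 and H2-T10. The 3 called were H2-Q5 (3.33 against 5.84 FPKM, 1.75-fold lower), H2-Q7 (10.2 against 17.7, 1.74-fold) and H2-Q6 (11.5 against 19.2, 1.67-fold). All 3 have a copy, in a comparison where 4.17% of genes with a copy and 5.77% of those without were called lower. B2m was 389.5 against 325 (1.20-fold higher) and H2-T23 was 23.4 against 19.2 (1.22-fold higher). Without the genes that have a copy, the class I median was 0.01 over 6 genes, which ends the shift below the control. The summed heavy chains were 359.6 FPKM against 375 in Egln1 floxed (1.04-fold lower), but the 5 Q genes summed to 54.4 against 77.6 (1.43-fold lower). The class II median exceeded the class I median by 0.59 on the log2 scale in this comparison.

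Set against the Egln1Tie2Cre library, the library labelled Egln1/Hif2aTie2Cre was higher in both classes. Of 11 class I genes kept, 9 were above, 4 of them called higher, and 0 were called lower. The class I median was 0.52 on the log2 scale. Of 6 class II genes, 6 were above and 2 were called higher, with a median of 0.45. Over all genes, 13.1% were called higher and 12.3% lower, with a median of -0.02. Among genes with a copy the shares were 45.1% and 21.5%, and among genes without one 9.7% and 11.3%. The 6 class I genes without a copy had a median of 0.60. The called class I genes were B2m (1.55-fold), H2-Q4 (1.66-fold), H2-M3 (2.28-fold) and H2-Q5 (1.52-fold), and the called class II genes were H2-DMb1 (1.91-fold) and H2-Eb1 (1.52-fold). H2-K1, at 129.5 against 86.5 FPKM, lay just under the threshold. H2-T24 and H2-Q6 were the class I genes below, at 5.68 against 8.31 FPKM and 11.5 against 12.6. The class medians differed by only -0.07, class II minus class I. The summed heavy chains and the sum of H2-Aa, H2-Ab1 and H2-Eb1 were both 1.39-fold higher. Since the 3 comparisons share libraries, they are not independent: 9 of the 11 class I genes kept throughout were lowest in Egln1Tie2Cre, and 6 of 6 class II genes were highest in the library labelled Egln1/Hif2aTie2Cre.

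Most of these genes lie in the MHC on chromosome 17, where 27 of the 40 are annotated. In gene order, the class II block from H2-DMa to H2-Eb1 lies between H2-K1 on one side and H2-D1 with the Q, T and M genes on the other. In Egln1Tie2Cre, H2-K1 on one side and the 4 kept Q genes on the other were called lower than Egln1 floxed. H2-T10, H2-T22 and H2-M3, on the side of the Q genes, were also called lower. On that side H2-D1 and H2-T23 were 1.25-fold and 1.22-fold lower without being called, and H2-T24 was 1.13-fold higher. Of those called, H2-Q5, H2-Q6, H2-Q7, H2-T10 and H2-T22 have a copy. Of the class II genes between these sides, H2-DMb1, H2-Ab1 and H2-Aa were 1.16-fold, 1.08-fold and 1.01-fold higher. H2-DMa and H2-Eb1 were 1.11-fold and 1.24-fold lower, and none of these class II genes was called. The Q genes H2-Q4, H2-Q5, H2-Q6 and H2-Q7 lie next to one another and were all below Egln1 floxed in Egln1Tie2Cre and in the library labelled Egln1/Hif2aTie2Cre.

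**Figure D3:**
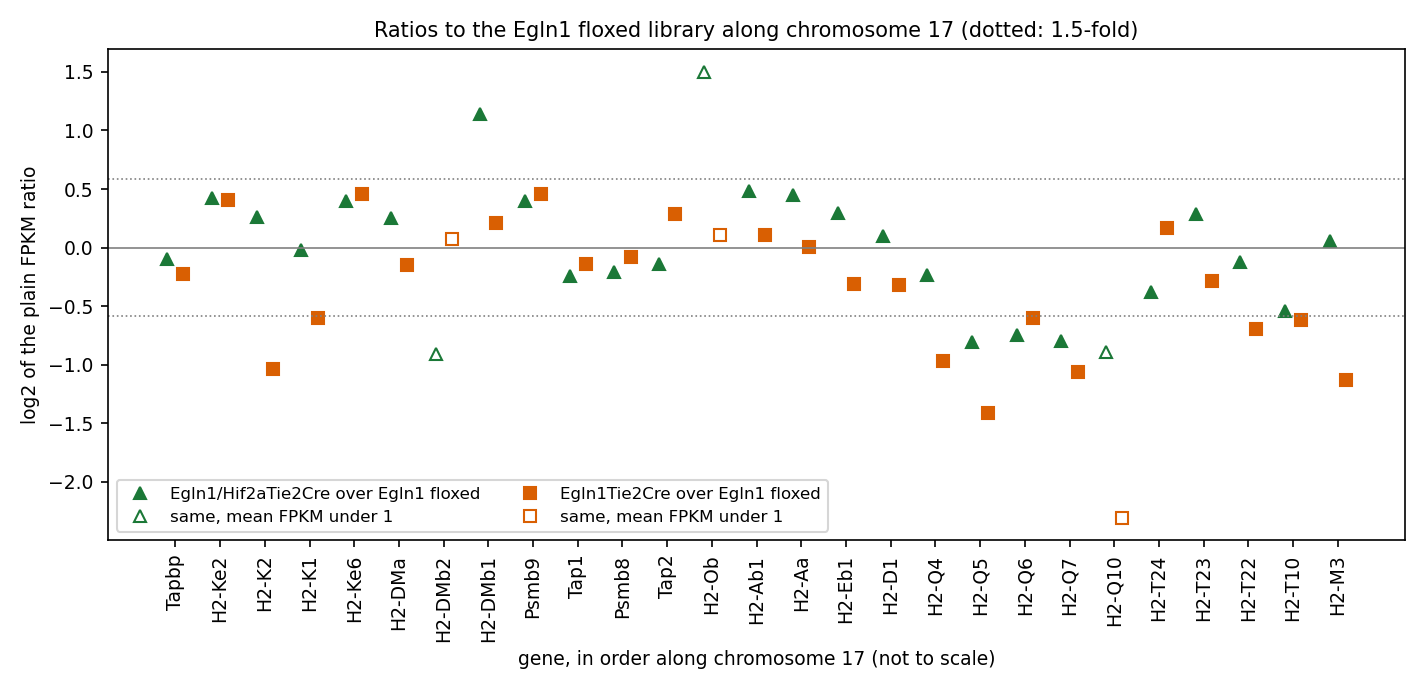
Log2 of the plain FPKM ratio to the Egln1 floxed library for the 27 genes on chromosome 17 in gene order, not to scale (triangle, library labelled Egln1/Hif2aTie2Cre; square, Egln1Tie2Cre; open symbols, mean FPKM under 1). The Q genes lie below 0 for both symbols, and the class II genes from H2-Ab1 to H2-Eb1 lie above 0 for the triangles.

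The promoters of both classes are known to share the elements that NLRC5 and CIITA act through, and they are shown to let the classes be compared by sequence. RefSeq promoters (GRCm38.p6, 250 bases before to 50 after the start) matched 29 of the 40 genes. A set of 3 motifs was searched on both strands: the core of the Y box (ATTGG), the core of the X2 box (TGACG) and an interferon response pattern (GAAA, any 2 bases, then GAAA). No base lay in matches of more than 1 of them. The first 4 sequences are class I and the last 2 class II, each 5′ to 3′ on the strand of its gene, with every motif match in capitals. H2-K1 is chr17:34000298-34000597 (minus), H2-D1 chr17:35262844-35263143 (plus), H2-Q6 chr17:35424600-35424899 (plus), H2-Q7 chr17:35438905-35439204 (plus), H2-Aa chr17:34287774-34288073 (minus) and H2-Eb1 chr17:34305617-34305916 (plus).
H2-K1: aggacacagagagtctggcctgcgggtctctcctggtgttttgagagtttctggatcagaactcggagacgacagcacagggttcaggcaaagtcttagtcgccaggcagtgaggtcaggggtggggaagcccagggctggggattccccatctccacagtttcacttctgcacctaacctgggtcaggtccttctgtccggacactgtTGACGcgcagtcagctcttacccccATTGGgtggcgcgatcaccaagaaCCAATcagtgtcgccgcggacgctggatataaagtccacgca
H2-D1: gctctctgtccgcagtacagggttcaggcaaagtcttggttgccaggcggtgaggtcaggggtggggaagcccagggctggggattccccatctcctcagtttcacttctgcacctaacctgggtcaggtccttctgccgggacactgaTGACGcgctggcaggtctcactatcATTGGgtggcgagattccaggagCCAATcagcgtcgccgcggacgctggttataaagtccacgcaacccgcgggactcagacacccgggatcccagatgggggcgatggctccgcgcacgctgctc
H2-Q6: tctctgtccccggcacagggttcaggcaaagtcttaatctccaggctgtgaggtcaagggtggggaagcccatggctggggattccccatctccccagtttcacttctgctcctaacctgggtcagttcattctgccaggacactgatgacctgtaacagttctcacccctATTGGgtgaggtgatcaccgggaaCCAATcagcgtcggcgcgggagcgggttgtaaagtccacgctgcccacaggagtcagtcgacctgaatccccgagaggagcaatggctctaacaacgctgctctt
H2-Q7: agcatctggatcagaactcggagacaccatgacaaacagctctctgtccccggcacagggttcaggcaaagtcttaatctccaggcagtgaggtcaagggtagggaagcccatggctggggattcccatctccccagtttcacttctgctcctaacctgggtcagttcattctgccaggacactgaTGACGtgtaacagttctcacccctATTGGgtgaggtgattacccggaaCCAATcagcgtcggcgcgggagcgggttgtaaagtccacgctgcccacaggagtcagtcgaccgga
H2-Aa: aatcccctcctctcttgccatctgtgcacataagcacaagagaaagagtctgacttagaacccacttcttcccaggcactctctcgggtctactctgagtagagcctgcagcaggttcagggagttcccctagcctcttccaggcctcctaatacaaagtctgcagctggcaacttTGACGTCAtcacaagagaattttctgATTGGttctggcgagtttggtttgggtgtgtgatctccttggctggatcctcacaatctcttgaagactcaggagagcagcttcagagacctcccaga
H2-Eb1: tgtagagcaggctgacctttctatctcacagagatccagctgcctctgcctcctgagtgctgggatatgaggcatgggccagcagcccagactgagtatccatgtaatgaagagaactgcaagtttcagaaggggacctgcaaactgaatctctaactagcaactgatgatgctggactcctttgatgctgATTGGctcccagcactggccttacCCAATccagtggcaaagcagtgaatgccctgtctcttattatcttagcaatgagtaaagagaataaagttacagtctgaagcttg

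The Y box core occurred in the promoters of 9 of 10 class I genes and 6 of 6 class II genes, against 41.1% of all genes with a promoter. The X2 core occurred in 7 of 10 class I and 1 of 6 class II genes, against 23.05%. Only these exact letters were counted, here and for the spacing below. An X2 box with a changed letter was thus missed, so the counts do not show that class II promoters lack one. In H2-K1, H2-D1, B2m and H2-M3 the X2 core began 25 bases before the Y box core, in H2-Q7 24 bases and in H2-Aa 26 bases. This arrangement, at a spacing of 24 to 26 bases chosen after the matches were seen, was found in 5 of 10 class I genes, 1 of 6 class II genes and 0.122% of all genes. H2-Q6 has no exact X2 match in the window, while its near-copy H2-Q7 has one. The interferon pattern occurred in B2m, H2-T22 and H2-T23 among class I genes, and in 0 of 6 class II genes, against 3.99% of all genes. A match describes letters only. H2-Q6 and H2-Q7 were both called lower than Egln1 floxed in Egln1Tie2Cre and in the library labelled Egln1/Hif2aTie2Cre. Their sequences match at 95.3%, so reads may be shared between them. Any link of promoter letters to level was not tested.

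The activators themselves were low in level, and neither was called in any comparison. Nlrc5 was 1.83 FPKM in the library labelled Egln1/Hif2aTie2Cre, 1.53 in Egln1Tie2Cre and 1.70 in Egln1 floxed. Ciita stayed under 1 FPKM, at 0.387, 0.509 and 0.385 in the same order, and was under the filter in each comparison. H2-Q10, a class I gene mainly of liver, stayed at 0.145 to 0.716 FPKM. Of the regulators chosen alongside, Rfx5, a subunit of the factor that binds the X box, was called lower in the library labelled Egln1/Hif2aTie2Cre, at 1.93 FPKM against 3.47 in Egln1 floxed (1.80-fold). The other Rfx genes listed, Rfxap and Rfxank, lay above Egln1 floxed there without being called. Rfxap was 11.9 against 9.02 FPKM and Rfxank 3.69 against 3.49. Irf1, an interferon-gamma-induced activator of class I and processing genes, was 13.02, 11.2 and 13.7 FPKM in the 3 libraries.

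Peptide processing genes lay on both sides of the control. In Egln1Tie2Cre, 9 of the 14 were above Egln1 floxed and 5 below, with 1 called in each direction (Pdia3 higher, Psme2 lower), fewer than the 11.7% and 12.4% over all genes. The direction of Psme2 reversed when it was summed with its copy Psme2b. The processing median was 0.19 on the log2 scale. The peptide transporter subunits Tap1 and Tap2 were 5.49 against 6.04 FPKM and 16.7 against 13.7. Tapbp, which encodes tapasin and holds class I at the transporter, was 27.7 against 32.3, and its relative Tapbpl was 3.53 against 3.03. Erap1, which trims peptides in the endoplasmic reticulum, was 9.34 against 10.9. None of these transporter, tapasin and trimming genes reached 1.5-fold. In the library labelled Egln1/Hif2aTie2Cre the values were 5.11 FPKM for Tap1, 12.5 for Tap2, 30.1 for Tapbp, 2.65 for Tapbpl and 8.08 for Erap1, each below Egln1 floxed. Ifi30, a thiol reductase of endosomes that serves the class II pathway, was 7.45, 8.50 and 7.24 FPKM across the 3 libraries.

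The immunoproteasome subunits Psmb8, Psmb9 and Psmb10 replace catalytic subunits of the ordinary proteasome and alter the peptides it makes. Psmb10 was 35.7 FPKM in the library labelled Egln1/Hif2aTie2Cre, 46.4 in Egln1Tie2Cre and 32.1 in Egln1 floxed, and Psmb9 was 7.61, 7.94 and 5.77. Psmb8 was 15.04, 16.4 and 17.3 FPKM. Psmb10 and Psmb9 were thus 1.44-fold and 1.38-fold higher in Egln1Tie2Cre than in Egln1 floxed, and Psmb8 was 1.05-fold lower. Of the 14 ordinary proteasome subunits listed, the 9 without a copy were all above the control in the same comparison (median log2 ratio 0.59). Of these, 5 were called higher, against 10.5% of all genes without a copy. The 5 subunits with a copy were all below the control. Of these, 4 were called lower, against 41.7% of all genes with a copy. Psmb9 and Tap1 overlap on opposite strands, and the strand setting of the sequencing is not given, so reads of the overlap cannot be told apart. The same uncertainty holds for B2m with Patl2, Pdia3 with Catsper2, H2-DMa with Brd2, Psme1 with Emc9, Erap1 with Cast, Tapbp with Zbtb22, Tapbpl with Vamp1, Ciita with Dexi and H2-T10 with Gm7030, which also overlap.

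Psme1 and Psme2 encode the 2 subunits of the PA28 proteasome activator. Psme1 was 109 FPKM in the library labelled Egln1/Hif2aTie2Cre, 124 in Egln1Tie2Cre and 121 in Egln1 floxed. Psme2 was 72.02, 11.4 and 45.6 in that order, 3.99-fold lower in Egln1Tie2Cre than in Egln1 floxed and the largest fold of any processing gene. Its coding sequence is 99.3% identical to Psme2b, which was listed at 1.71, 38.2 and 1.46 FPKM. The sum of Psme2 and Psme2b was 73.7, 49.7 and 47.04 FPKM, which puts Egln1Tie2Cre 1.06-fold above Egln1 floxed, the reverse of Psme2 alone. The sum was 1.57-fold higher in the library labelled Egln1/Hif2aTie2Cre than in Egln1 floxed.

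**Figure D4:**
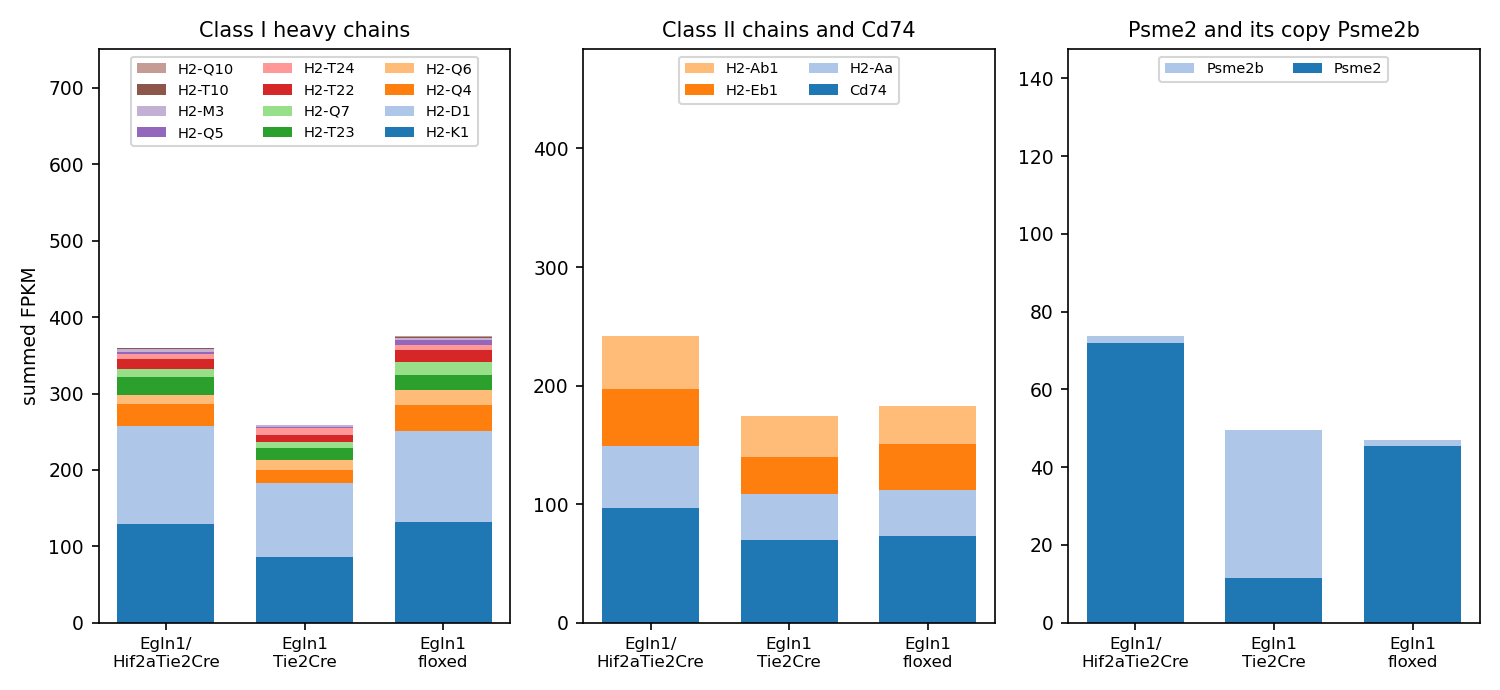
Stacked FPKM of the 12 class I heavy chains, of Cd74 with the 3 abundant class II chains, and of Psme2 with its near-identical copy Psme2b, in the library labelled Egln1/Hif2aTie2Cre, Egln1Tie2Cre and Egln1 floxed. Class I heavy chains sum to 259 FPKM in Egln1Tie2Cre against 375 in Egln1 floxed, while Psme2 and Psme2b together differ little between these libraries although each alone differs widely.

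Chaperones of the endoplasmic reticulum that fold class I chains were abundant. Calr, the gene of calreticulin in the peptide loading complex, was 201 FPKM in the library labelled Egln1/Hif2aTie2Cre, 182 in Egln1Tie2Cre and 135 in Egln1 floxed. Pdia3, the disulfide isomerase ERp57 of the same complex, was 76.03, 86.9 and 54.1, and was the only processing gene called higher in Egln1Tie2Cre than in Egln1 floxed (1.61-fold). Canx, which encodes calnexin and binds new heavy chains, was 98.1, 129 and 104 FPKM. All 3 were above the control in Egln1Tie2Cre, the opposite side from the heavy chains they fold. These chaperones serve many glycoproteins. Hsp90b1 and Pdia6, further chaperones of the same compartment, were 191 against 127 FPKM and 59.03 against 42.1 in Egln1Tie2Cre and Egln1 floxed.

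Among 41 further genes of the pathway, 4 were called higher and 1 lower in Egln1Tie2Cre than in Egln1 floxed, a share no larger than the 11.7% and 12.4% over all genes, with a median log2 ratio of 0.15. Beside Hsp90b1, the higher ones were the lysosomal proteases Ctsl (125 against 77.1 FPKM) and Ctsd (715 against 469.5) and the vesicle protein Sec22b, which takes part in cross-presentation (23.5 against 13.7). In the library labelled Egln1/Hif2aTie2Cre, 1 was called higher and 2 lower than in Egln1 floxed (median -0.06), against 6.73% and 5.74% of all genes. The lower ones were Rfx5 and Lnpep, an aminopeptidase of endosomes (5.22 against 10.2). Ctss, the protease that removes the invariant chain in antigen-presenting cells, was 15.4, 14.4 and 10.3 FPKM across the 3 libraries, and so lowest in Egln1 floxed.

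Genes induced by interferon were also lowest in the Egln1Tie2Cre library, in 18 of the 18 kept throughout. None of the 20 listed is a member of the 40. Of the 18 kept in Egln1Tie2Cre against Egln1 floxed, 18 were below the control and 13 were called lower, against 12.4% of all genes. The list's median was -0.92 on the log2 scale. Irf7, a regulator of the interferon response, was 4.70 against 10.9 FPKM, and Ifit3, an antiviral effector, was 3.33 against 12.4. Ifit3 has a near-identical copy, and 41.7% of all genes with a copy were called lower in this comparison. In the library labelled Egln1/Hif2aTie2Cre, 14 of 19 were below Egln1 floxed, with a median of -0.20. There 1 was called higher (Ifi44) and 1 lower (Igtp), against 6.73% and 5.74% of all genes. The part of the interferon genes in the class I values was not tested.

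Markers of immune cells are given for the whole ventricle, where fewer cells of a type and less RNA per cell cannot be told apart. Of 18 macrophage markers, 17 were listed and their FPKM summed to 395 in the library labelled Egln1/Hif2aTie2Cre, 209 in Egln1Tie2Cre and 273 in Egln1 floxed. Lyz2, which has a near-identical copy, gave 153, 62.5 and 91.9 FPKM of these sums, and without it they were 242, 147 and 181. In the library labelled Egln1/Hif2aTie2Cre, 14 of these 17 were above Egln1 floxed (median log2 ratio 0.16), beside the higher class II genes. Of the 17, 2 were called higher (Lyz2 and Tyrobp) and 0 lower, against 6.73% and 5.74% of all genes. Against Egln1Tie2Cre, 6 of 14 were called higher in that library, where 13.1% of all genes were. In Egln1Tie2Cre, 10 of 14 were below Egln1 floxed, with 2 called in each direction (median -0.25), while the class II median was -0.03. C1qa, a complement gene of macrophages, was 60.3, 28.5 and 42.1 FPKM, whereas Csf1r, the macrophage growth factor receptor, was 10.8, 10.3 and 10.2. Tyrobp, a signalling adaptor of myeloid cells, was 28.2, 23.1 and 13.99 FPKM, so it was 1.65-fold higher in Egln1Tie2Cre than in Egln1 floxed. Itgam (2.08 against 1.30 FPKM) was the other called higher in that comparison. The 2 called lower were Folr2 (3.72 against 9.27) and C1qc (21.4 against 32.6). Over all genes, 11.7% were called higher and 12.4% lower. Of 11 dendritic cell markers 6 were listed, and the 5 listed in all libraries summed to 11.3, 9.49 and 9.24 FPKM. The dendritic cell factor Zbtb46, also found in endothelium, made up much of this at 5.68, 4.32 and 4.31.

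Lymphocyte markers were scarce. The 5 listed of 8 B cell markers summed to 4.99, 3.08 and 4.88 FPKM in the library labelled Egln1/Hif2aTie2Cre, Egln1Tie2Cre and Egln1 floxed. Of 13 T and natural killer cell markers 8 were listed, none reached 1 FPKM, and the 7 listed in all libraries summed to 3.12, 3.38 and 1.99. The deposited tables list no gene at 0, so a marker without a row in a table has no value here. The 12 endothelial markers summed to 449, 560.2 and 407 FPKM, so this sum was highest in Egln1Tie2Cre. Much of its difference from Egln1 floxed came from Eng (117 against 65.5 FPKM) and the haemostatic gene Vwf (89.2 against 20.4). These were the 2 called higher, where 11.7% of all genes were. Of the 12 markers, 9 were above Egln1 floxed and 3 below, with a median log2 ratio of 0.26. In the library labelled Egln1/Hif2aTie2Cre, 9 were likewise above Egln1 floxed and 3 below, with a median of 0.09. Emcn (44.8 against 21.4 FPKM) and Cldn5 (24.3 against 14.4) were called higher there, where 6.73% of all genes were. The part of these cells in the MHC values was not tested.

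**Figure D5:**
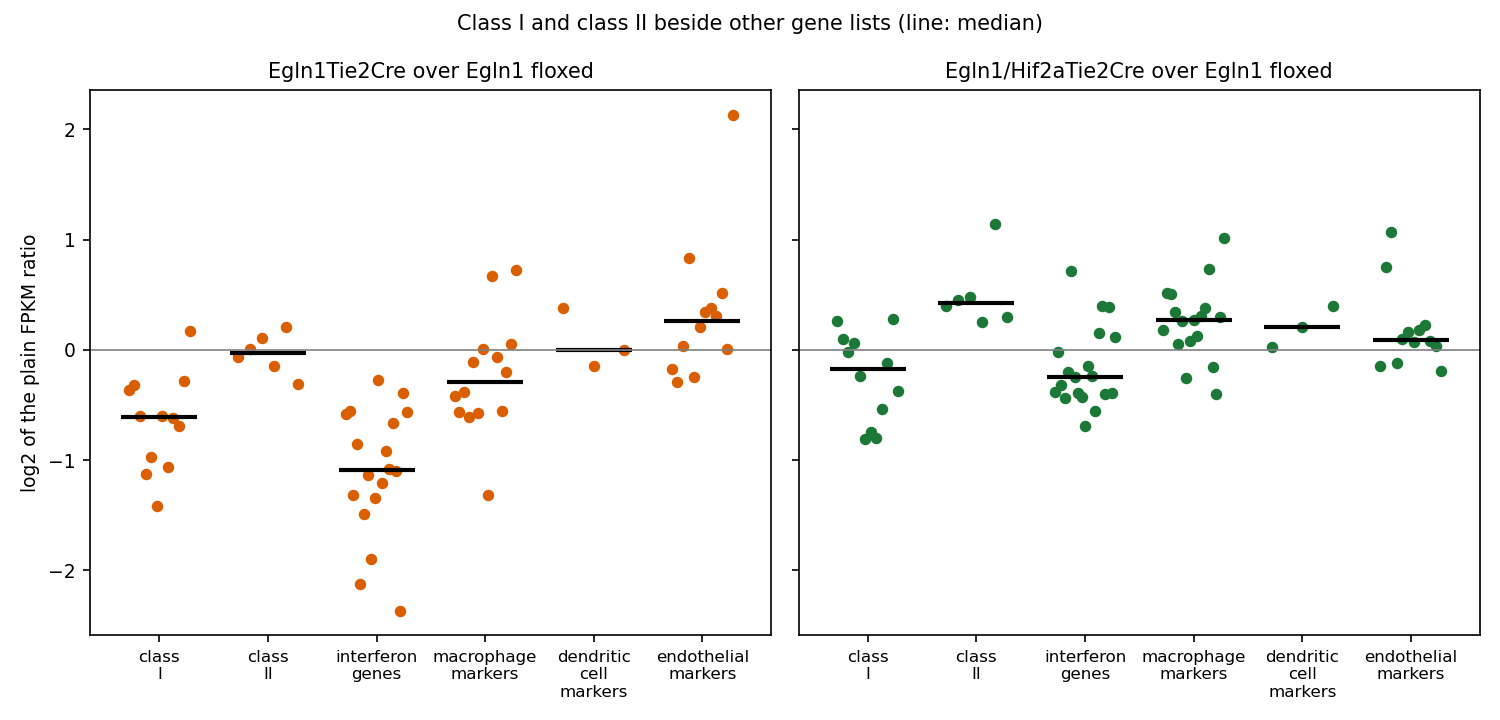
Log2 of the plain FPKM ratio to the Egln1 floxed library for class I, class II and other gene lists with a mean FPKM of at least 1, 1 point per gene with the median of the plain ratios as a line (left, Egln1Tie2Cre; right, library labelled Egln1/Hif2aTie2Cre). In the left panel class I (except H2-T24) and the interferon genes lie below 0 while class II lies near 0, and in the right panel class II and the macrophage markers lie mostly above 0.

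The other 3 genes with an H2- symbol do not encode working class I or class II chains. H2-K2, annotated as a transcribed class I pseudogene, was 4.45 FPKM in the library labelled Egln1/Hif2aTie2Cre, 1.81 in Egln1Tie2Cre and 3.71 in Egln1 floxed, so it too was lowest in Egln1Tie2Cre. H2-Ke6 and H2-Ke2 lie in the MHC but encode a steroid dehydrogenase and a prefoldin subunit. H2-Ke6 was 85.8, 89.4 and 64.96 FPKM, and H2-Ke2 was 78.97, 77.7 and 58.7, so both were lowest in Egln1 floxed.

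In the authors' deposited tables, whose q-values compare 2 pooled libraries and not 2 genotypes, 0 of the 40 genes had a q-value of 0.05 or less in any comparison. The lowest q-value in the authors' deposited tables was 0.769, for Psme2 in the library labelled Egln1/Hif2aTie2Cre against Egln1Tie2Cre. By the same threshold, the authors' deposited tables place 69 genes past it for Egln1Tie2Cre against Egln1 floxed, 85 for the library labelled Egln1/Hif2aTie2Cre against Egln1Tie2Cre and 2 for that library against Egln1 floxed.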

How the data were processed

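RNA of 3 mice per genotype was pooled and sequenced on an Illumina instrument, per the labels' protocols and design text, which gives 1 library per genotype. Reads were handled with TopHat2 and Cuffdiff, per the submitters' processing notes. Neither versions nor genome build and annotation are given in the sources used. The authors deposited 3 tables of a pair of libraries each, with an FPKM per library, a fold ratio and a q-value per gene, per the file headers. The deposited fold ratio was not used. Table names give a pair of sample titles but not which column is which. A column was assigned to the title shared with the other table in which its values recur, and every shared gene recurred within 1% (14369 genes for Egln1 floxed, 14489 for Egln1Tie2Cre and 14367 for the library labelled Egln1/Hif2aTie2Cre). FPKM values keep no depth, so no counting interval is given.

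A gene was kept when its mean FPKM in the pair reached 1. Plain FPKM ratios gave the calls at 1.5-fold, and medians are of log2(FPKM + 1) ratios, which understate folds of low genes. No test was made. Copies were searched with BLAST 2.17.0 against GENCODE M21 transcripts (GRCm38). Of the 15503 genes, 210 had no transcript to search. Ratios, calls and the copy rule were tested on simulated data. Members were named where they reached an FPKM of 1 or were called, and the others are given by range or value. Other genes are named at 1.5-fold and an FPKM of 5, or as defining markers, or as regulators, proteases or chaperones beside the members they serve, these last chosen after their values were seen. The members and lists were chosen with earlier results of these data known. Promoters are those of RefSeq (GRCm38.p6), matched by symbol, and gene positions those of GENCODE M21, matched by gene ID. Python 3.11.15, pandas 2.3.3 and numpy 2.4.6 were used. Alternatives were no filter, a mean FPKM of 5, a pseudocount of 0.1, a 2-fold call, centring, leaving out genes with a copy, counting H2-K2 in class I, and leaving out H2-Q5 and H2-T10, these last chosen after the data were seen.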

Additional observations from a re-analysis of the deposited data

How the results depend on the processing

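Each of the 15 medians and counts was recomputed under up to 8 alternatives. Counting H2-K2 in class I and leaving out H2-Q5 and H2-T10 were chosen after seeing the data. Of 81 values, 64 lay within 0.1 (log2) of the median reported or within 1.5 times the count reported, and 17 moved further. Of 51 medians, 49 kept their sign. The exceptions were the class II median of Egln1Tie2Cre over Egln1 floxed without a filter, at 0.01 against -0.03, and 1 class I median given next. Leaving out members with a copy moved the class I median to -0.48 for Egln1Tie2Cre over Egln1 floxed and to 0.013 for the library labelled Egln1/Hif2aTie2Cre over Egln1 floxed, with fewer genes left in each. Leaving out H2-Q5 and H2-T10 moved the class I median of that library over Egln1 floxed to -0.068. For Egln1Tie2Cre over Egln1 floxed, 10 of 36 members kept were called lower and 1 higher, against 12.4% and 11.7% of all genes. The lower count was 6 of 28 with a mean FPKM of at least 5, 4 of 28 without copies and 5 of 36 at 2-fold. The higher count was 0 of 36 at 2-fold. Of all genes without a copy, 9.27% were called lower. Of all 11978 genes kept, 674 were at least 2-fold lower and 618 at least 2-fold higher. For the library labelled Egln1/Hif2aTie2Cre over Egln1Tie2Cre, 8 of 35 members kept were called higher and 0 lower, against 13.1% and 12.3% of all genes. The higher count was 4 with a mean FPKM of at least 5, 5 without copies and 3 at 2-fold, and the lower count was 1 without a filter. For that library over Egln1 floxed, 2 of 36 members kept were called higher and 3 lower, near the 6.73% and 5.74% of all genes. The higher count was 1 with a mean FPKM of at least 5, 0 without copies and 1 at 2-fold, and the lower count was 5 without a filter, 0 without copies and 0 at 2-fold. These moves go with which genes were tested or with a higher threshold. Every member called in either direction for the library labelled Egln1/Hif2aTie2Cre over Egln1 floxed has a copy. No paired analysis was possible because each genotype has 1 library, and no library could be left out. Depth is unknown, so genes near 1 FPKM are the least certain.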

Other observations

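The MHC region of chromosome 17 also holds genes with no part in antigen presentation. Between the outermost H2- genes (GRCm38, 33938821 to 37274484), 102 other genes were listed, a set chosen after the members' values were seen. For Egln1Tie2Cre over Egln1 floxed, 78 of them were kept, of which 46 were above and 32 below the control, with a median log2 ratio of 0.09, against -0.58 for class I. For the library labelled Egln1/Hif2aTie2Cre over Egln1 floxed, 48 of 79 were above, with a median of 0.10, against 0.42 for class II.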
